A study of Arabidopsis thaliana with 18 samples.

Results

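Chaperone genes of Arabidopsis were followed in the aerial parts of seedlings with little glutathione and of wild-type seedlings under mild stress. The genes were picked by name. Of 22746 probe sets tested, 13513 were named by 1 gene in the annotation of the array, and 6 of these genes had a symbol of the heat shock protein, heat shock factor, BiP, BAG, FKBP, chaperonin, Clp, protein disulfide isomerase, calreticulin, calnexin, ROF, HOP or J protein families. *ROF2* (AT5G48570) and *HOP3* (AT4G12400) were added by locus, which made 8 members with 1 probe set each. The annotation used is thin for these families, since a RefSeq gene table of the assembly TAIR10.1 holds 97 genes with such symbols and 6 of them had a named probe set. None of its 16 HSF and 19 HSP genes was among them, so no heat shock factor is among the members, and the other genes were not analysed here. The gene AT5G51440 was left out by locus before the genes with a named probe set were counted.

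Chaperones bind unfolded proteins and help them to fold, to assemble or to be degraded. In the cytosol, HSP70 works with J proteins, which bring it clients and start its ATPase, and hands some clients on to HSP90 through the scaffold protein HOP. Heat, oxidants and other conditions that unfold proteins switch on many cytosolic chaperone genes through heat shock factors, whereas unfolded proteins in the endoplasmic reticulum (ER) switch on ER chaperone genes through the factors bZIP28 and bZIP60.

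There were 6 groups of 3 ATH1 arrays each, namely *pad2-1* under MV, *pad2-1* under P-lim, *pad2-1* control, WT under MV, WT under P-lim and WT control. All plants had the Col-0 background and were grown on agar with 1% sucrose at 22 °C and 16 h of light for 18 days. *pad2-1* is a mutant allele of *GSH1*, which encodes γ-glutamylcysteine synthetase and so starts glutathione synthesis, in the whole plant, and 1 allele was profiled, so an effect of the gene and of other changes in that line cannot be told apart. MV (methyl viologen) passes electrons from photosystem I to oxygen. The methods give its concentration as 0.05 µM, while the labels give the same figure in M, and P-lim plants got 20% of the phosphate that control plants had. Each array was hybridized with 1 biological replicate, and a lower level of a transcript in the tissue and fewer cells that make it cannot be told apart on such arrays.

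All values are deposited log2 RMA values, on which 1 unit is a doubling of the signal. Levels of different probe sets are set against each other only as rough positions within an array. These serve to check the markers and to show which genes lie near the background. Arrays of a group correlated with a Pearson r of 0.9964 to 0.9984 across probe sets, which are not independent replicates, and no 2 arrays were identical. The labelled tissue was checked with marker genes. Of 7 listed leaf markers, 1 had a probe set named by 1 gene in the annotation. This was *RCA*, the activase of Rubisco, which lay between 13.158 and 13.289 on all 18 arrays, near the top of each. Of 10 listed root markers, 2 had such a probe set. These root hair expansins, *EXPA7* and *EXPA18*, lay between 3.826 and 4.404, above 23.8 to 32.4% of the probe sets of an array. None of 5 flower markers had a probe set so named. *GSH1* has no value under its own name here, and the mutation was not checked on the arrays.

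By the compartment known for the protein or its family, 3 members belong to the cytosol. They are *ROF2*, a peptidyl-prolyl isomerase of the FKBP family, *HOP3*, a co-chaperone that links HSP70 and HSP90, and *CLPB2* (AT4G14670), a relative of the cytosolic disaggregase HSP101 that is placed with it here. The ER has 2 members, *CRT1b* (AT1G09210), a calreticulin that binds calcium and glycoproteins, and *PDIL5-1* (AT1G07960), a protein disulfide isomerase-like protein. *CLPP4* (AT5G45390) encodes a proteolytic subunit of the plastid Clp protease, a partner of Clp chaperones rather than a chaperone, and *ATJ1* (AT1G28210) a mitochondrial J protein. *DJ1D* (AT3G02720), a DJ-1 family protein with glyoxalase activity, has the letters of the J proteins in its symbol but is not one of them, and it was given no compartment.

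*ROF2* was high in *pad2-1* control plants. Its log2 values were 5.47, 5.22 and 5.19 in *pad2-1* under MV, 5.54, 5.39 and 5.52 in *pad2-1* under P-lim and 6.97, 6.78 and 6.26 in *pad2-1* control. In WT they were 5.58, 5.36 and 5.19 under MV, 5.23, 5.28 and 5.21 under P-lim and 5.34, 5.38 and 5.35 in the control. The 3 *pad2-1* control arrays lay above all others, which lay between 5.19 and 5.58. The order of the group means was *pad2-1* control (6.67 ± 0.37), *pad2-1* P-lim (5.48 ± 0.08), WT MV (5.38 ± 0.20), WT control (5.36 ± 0.02), *pad2-1* MV (5.29 ± 0.15) and WT P-lim (5.24 ± 0.04; SD, n = 3 each). Each of the last 5 differed from its neighbour by less than the larger SD of the pair.

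*HOP3* was also highest in *pad2-1* control plants. Its log2 values were 3.76, 3.68 and 3.66 in *pad2-1* under MV, 3.96, 3.53 and 3.54 in *pad2-1* under P-lim and 5.54, 4.84 and 4.31 in *pad2-1* control. In WT they were 3.54, 3.24 and 3.57 under MV, 3.23, 3.25 and 3.45 under P-lim and 3.35, 3.29 and 3.27 in the control. The *pad2-1* control arrays again lay above all others. The group means were 4.90 ± 0.62 in *pad2-1* control, 3.70 ± 0.06 in *pad2-1* MV, 3.68 ± 0.24 in *pad2-1* P-lim, 3.45 ± 0.18 in WT MV, 3.31 ± 0.12 in WT P-lim and 3.30 ± 0.04 in WT control (SD, n = 3 each). From *pad2-1* MV downwards, neighbours in this order also differed by less than the larger SD of the pair. The arrays' lower quartiles lay between 3.80 and 3.91, and the WT values of *HOP3* were above 13.0 to 21.1% of the probe sets of their array, too near the background to show a fall.

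**Figure D1:**
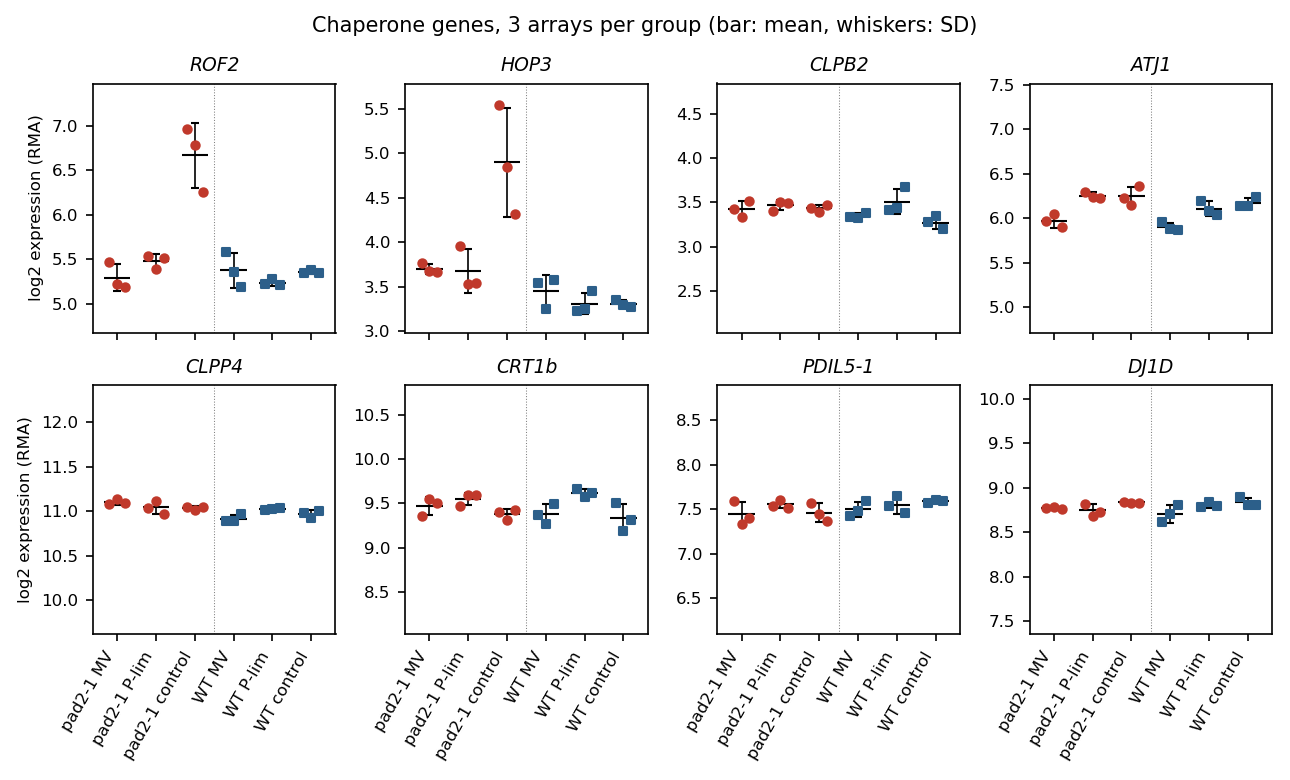
Log2 expression (RMA, y axis) of the 8 member genes on each array of the 6 groups (x axis), with *pad2-1* as red circles and WT as blue squares, bars for group means and whiskers for the SD. *ROF2* and *HOP3* have their 3 *pad2-1* control arrays above all others, from 6.26 and from 4.31 upwards, while the groups of the other 6 genes lie close together.

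The first question is how these genes differ between *pad2-1* and WT plants without stress. In *pad2-1* control plants *ROF2* was 2.48-fold higher than in WT control plants, and *HOP3* was higher as well. *HOP3* lay near the background in WT control, where RMA compresses differences, so its values may understate the size. The log2 fold change of *ROF2* was 1.31 (95% confidence interval 1.04 to 1.59, limma adjusted p = 2.69e-06), and that of *HOP3* was 1.59 (1.18 to 2.01, limma adjusted p = 3.48e-05). These were 2 of 8 members higher and 0 lower, at an adjusted p under 0.05 in limma, where 6.35% of all probe sets tested were called, 3.66% higher and 2.69% lower. Both genes had been added to the members by locus with earlier results of these data known, so their count shows nothing about the families. Of the 6 members found by symbol, none was called by limma and 1, *CLPB2*, had an unadjusted p under 0.05. *CLPB2* had a log2 fold change of 0.16 (limma adjusted p = 0.217) with its arrays at 3.44, 3.39 and 3.47 in *pad2-1* control against 3.28, 3.35 and 3.20 in WT control, apart but close, as were the arrays of 25.1% of all probe sets. The median log2 fold change of the 8 members was 0.07, and that of all probe sets tested was -0.0046.

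The *pad2-1* control arrays were less alike than those of other groups for *ROF2* and *HOP3*. The SD of *ROF2* was 0.37 in *pad2-1* control and 0.02 to 0.20 in the other groups, and that of *HOP3* was 0.62 against 0.04 to 0.24. Replicate 1 was the highest and replicate 3 the lowest for both. The calls of both genes held with any of the 6 arrays left out, with log2 fold changes of 1.16 to 1.52 for *ROF2* and 1.27 to 1.89 for *HOP3*, which passed limma's test each time (highest adjusted p = 4.18e-05 and 0.000315).

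In *pad2-1*, MV-treated plants had 2.60-fold less *ROF2* transcript than control plants, and less *HOP3*, whose level under MV was near the background. *ROF2* fell to 5.29 under MV, against 6.67 in *pad2-1* control (log2 fold change -1.38, 95% confidence interval -1.65 to -1.10, limma adjusted p = 2.71e-06), and *HOP3* fell to 3.70, against 4.90 (-1.20, -1.61 to -0.78, limma adjusted p = 0.000665). The mitochondrial J protein gene *ATJ1* fell too, by a smaller amount, with arrays at 5.97, 6.05 and 5.90 under MV and 6.23, 6.14 and 6.36 in *pad2-1* control (log2 fold change -0.27, limma adjusted p = 0.0107). Its call was lost without *pad2-1* control replicate 3 (limma adjusted p = 0.0580) or *pad2-1* MV replicate 3 (0.0591), and with the arrays of the groups compared alone (0.0843). In all, 3 of 8 members were lower and 0 higher, where 8.01% of all probe sets were called, 4.16% higher and 3.85% lower. The MV and control arrays of all 3 genes were apart, as were those of 23.6% of all probe sets. Of the 6 members found by symbol, 1 was lower.

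Under P-lim in *pad2-1*, *ROF2* and *HOP3* were lower as well. *ROF2* was at 5.48 under P-lim and 6.67 in *pad2-1* control (log2 fold change -1.19, 95% confidence interval -1.46 to -0.91, limma adjusted p = 7.6e-06), a level 2.27-fold lower. *HOP3* was at 3.68 and 4.90 (log2 fold change -1.22, -1.64 to -0.81, limma adjusted p = 0.00036), the level under P-lim again near the background. The other 6 members were not called by limma (1 at an unadjusted p under 0.05, *CRT1b*), and their log2 fold changes lay between -0.09 (*DJ1D*) and 0.17 (*CRT1b*). These 2 members lower and 0 higher stood beside 11.8% of all probe sets called, 6.58% higher and 5.23% lower. The 3 comparisons that use the *pad2-1* control arrays, against WT, MV and P-lim, share those arrays and are not independent of each other.

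In WT the same treatments left *ROF2* and *HOP3* without a call. Under MV the log2 fold change of *ROF2* was 0.02 (95% confidence interval -0.26 to 0.30) and that of *HOP3* was 0.15 (-0.27 to 0.56). Under P-lim they were -0.12 (-0.39 to 0.16) and 0.00 (-0.41 to 0.42). A change in WT of the size seen in *pad2-1* lies outside these intervals, although for *HOP3* the low level in WT limits what a fall could show.

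Whether the genotypes responded differently was tested as an interaction. For MV, 1.65% of all probe sets were called, 0.589% higher and 1.06% lower, and for P-lim 0.725%, 0.185% higher and 0.541% lower. For MV, *ROF2* had an interaction of -1.40 on the log2 scale (standard error 0.19, limma adjusted p = 0.00056) and *HOP3* of -1.34 (0.28, limma adjusted p = 0.0161). These were 2 of 8 members, and for both the response to MV was more negative in *pad2-1* than in WT. The call of *HOP3* was lost with trend and robust estimation of the variance (limma adjusted p = 0.0535). For P-lim, *ROF2* had -1.07 (0.19, limma adjusted p = 0.00857) and was the 1 member called, while *HOP3* had -1.23 (0.28, limma adjusted p = 0.0509). *HOP3* passed without *pad2-1* control replicate 1 (0.0442) or 3 (0.000666) and without *pad2-1* P-lim replicate 1 (0.0281), and with each array shifted to the same median (0.0416). Since *HOP3* was near the background in WT, a fall there could hardly have shown, which bears on both of its interactions. The interactions use the *pad2-1* control arrays as well, and none of the 6 members found by symbol was called by limma in either or had an unadjusted p under 0.05.

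With a log2 size of 1 or more asked for besides the adjusted p, *ROF2* and *HOP3* stayed called in the 3 comparisons that use *pad2-1* control, beside 0.51% of all probe sets for MV, 0.901% for P-lim and 0.615% for *pad2-1* against WT. No member passed that rule in WT under MV (0.739% of all probe sets) or P-lim (0.721%), or between the genotypes under MV (0.378%) or P-lim (0.347%). In the interactions, *ROF2* and *HOP3* passed it for MV (0.391%) and *ROF2* for P-lim (0.251%).

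Under stress, the genotypes lay closer together. The log2 fold change of *pad2-1* against WT under MV was -0.08 for *ROF2* (95% confidence interval -0.36 to 0.19) and 0.25 for *HOP3* (-0.17 to 0.67), and under P-lim it was 0.25 for *ROF2* (-0.03 to 0.52) and 0.37 for *HOP3* (-0.05 to 0.78). None of these was called (limma adjusted p = 0.367 to 0.805). The 3 *pad2-1* arrays of *HOP3* were above the 3 WT arrays under both stresses, and those of *ROF2* under P-lim, as happened in either direction for 20.1% of all probe sets under MV and 23.2% under P-lim.

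**Figure D2:**
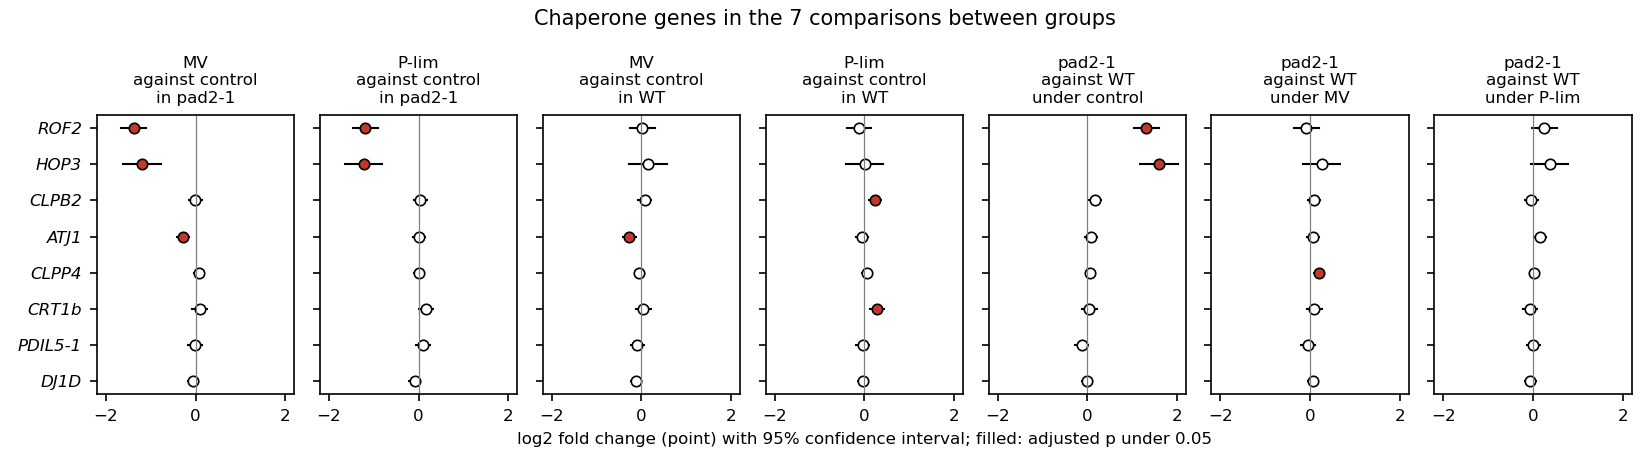
Log2 fold change (x axis) with its 95% confidence interval for the 8 member genes (y axis) in the 7 comparisons between groups, filled where limma's adjusted p was under 0.05. *ROF2* and *HOP3* lie between -1.38 and -1.19 for both stresses in *pad2-1* and at 1.31 and 1.59 for *pad2-1* against WT under control, and the largest value of any other member is 0.28.

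The 6 members found by symbol made 5 calls in 42 tests (11.9%), where 8.48% of all tests over the 7 comparisons were called, and the called sizes ran from 0.19 to 0.28 on the log2 scale. These shares are close to each other. Each of the 5 calls is named, with the arrays whose removal ended it.

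*ATJ1* fell in WT under MV as it did in *pad2-1*. Its arrays were at 5.96, 5.88 and 5.86 in WT MV and 6.13, 6.14 and 6.24 in WT control. The MV arrays lay below the control arrays, as they did in *pad2-1*, and the arrays of 30.1% of all probe sets were apart in WT under MV. The log2 fold change in WT was -0.27 (95% confidence interval -0.40 to -0.13, limma adjusted p = 0.00818), and it was called with any 1 array left out (highest adjusted p = 0.0493). It was the 1 member lower in WT under MV, with 0 higher, where 13.5% of all probe sets were called, 7.98% higher and 5.56% lower. The interaction of *ATJ1* with MV was -0.01 (95% confidence interval -0.20 to 0.18, limma adjusted p = 0.986), and its log2 fold change under P-lim was 0.01 in *pad2-1* and -0.06 in WT, neither called. *ATJ1* was thus the 1 member with a call for the same treatment in both genotypes.

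In WT under P-lim, the calreticulin gene *CRT1b* and *CLPB2* were higher, 2 of 8 members and 0 lower, where 9.21% of all probe sets were called, 4.92% higher and 4.28% lower. *CRT1b* had 9.66, 9.58 and 9.62 under P-lim and 9.50, 9.19 and 9.31 in WT control (log2 fold change 0.28, 95% confidence interval 0.12 to 0.44, limma adjusted p = 0.0250). In *pad2-1* its arrays were at 9.47, 9.59 and 9.59 under P-lim and 9.40, 9.31 and 9.43 in the control, also apart, with a log2 fold change of 0.17 that was not called (limma adjusted p = 0.180), and the interaction was -0.11 (0.820). Arrays were apart for 31.8% of all probe sets in WT under P-lim and for 27.2% in *pad2-1*. The call in WT was lost without WT control replicate 2 (0.154) or 3 (0.0881) and without WT P-lim replicate 1 (0.0974) or 3 (0.0743).

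*CLPB2* had 3.42, 3.44 and 3.68 in WT P-lim and 3.28, 3.35 and 3.20 in WT control (log2 fold change 0.24, 95% confidence interval 0.09 to 0.38, limma adjusted p = 0.0346). Replicate 3 of WT P-lim was the highest of all 18 arrays, and without it the log2 fold change was 0.15 (limma adjusted p = 0.203). The call was also lost without WT control replicate 1 (0.0812) or 3 (0.164), with the arrays of the groups compared alone (0.0915) and with trend and robust estimation (0.0525). On every array *CLPB2* lay below the lower quartile, above 14.4 to 21.7% of the probe sets, so its level is near the background.

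The plastid gene *CLPP4* was higher in *pad2-1* than in WT under MV, the 1 member called there, with 0 lower, where 5.16% of all probe sets were called, 2.34% higher and 2.82% lower. Its arrays were at 11.08, 11.14 and 11.09 in *pad2-1* MV and 10.90, 10.90 and 10.97 in WT MV (log2 fold change 0.19, 95% confidence interval 0.08 to 0.29, limma adjusted p = 0.0310). The call was lost with the arrays of the groups compared alone (0.193), without WT MV replicate 1 (0.0919) or 2 (0.0844) and without *pad2-1* MV replicate 2 (0.114) or 3 (0.0778). Its log2 fold change for *pad2-1* against WT was 0.07 under control and 0.02 under P-lim, and the interaction with MV was 0.12 (limma adjusted p = 0.524). Under P-lim no member was called between the genotypes by limma, where 5.31% of all probe sets were, 3.15% higher and 2.16% lower, and 1 member, *ATJ1*, had an unadjusted p under 0.05 (0.0333, log2 fold change 0.15).

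*PDIL5-1* and *DJ1D* had no call by limma in the 7 comparisons, and *DJ1D* had an unadjusted p under 0.05 in 1 of them, WT under MV (0.0277). *PDIL5-1* stayed between 7.33 and 7.65 on all 18 arrays, with group means of 7.44 to 7.59 and log2 fold changes of -0.13 to 0.09, whose 95% confidence intervals lay within -0.28 and 0.25. *DJ1D* stayed between 8.61 and 8.89, with group means of 8.71 to 8.84 and intervals within -0.24 and 0.18. Its lowest array was WT MV replicate 1 (8.61), and without WT MV replicate 3 (8.81) its fall in WT under MV passed the test (limma adjusted p = 0.0423, against 0.136 with all arrays). A doubling of either gene lies outside these intervals in each comparison.

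By compartment, the cytosol had 2 of its 3 members lower in *pad2-1* under MV, 2 of 3 lower under P-lim and 2 of 3 higher against WT under control, in each case *ROF2* and *HOP3*, beside 8.01%, 11.8% and 6.35% of all probe sets called. The ER had 0 of 2 called in these 3 comparisons, with log2 fold changes from -0.13 to 0.17. The plastid had 0 of 1, and the mitochondrion had 1 of 1 lower under MV. With 1 to 3 genes to a compartment and the 2 cytosolic genes chosen by locus, no difference between compartments was tested.

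Related chaperones whose symbols fall outside the rule were counted beside the members, from a list chosen with earlier results of these data known. Most of these genes have symbols in mixed case, while *ATHSP22.0* misses the rule by its first letters. They are 7 genes, the HOP genes *Hop1* and *Hop2*, the cytosolic HSP70 gene *Hsp70-2*, the ER small heat shock protein gene *ATHSP22.0* and the plastid chaperonin genes *Cpn60beta2*, *Cpn60beta3* and *Cpn60beta4*. In *pad2-1* against WT under control, 3 of 7 were higher and 0 lower in limma, with a median log2 fold change of 0.14, where 6.35% of all probe sets were called, 3.66% higher. *ATHSP22.0* had 4.61, 4.28 and 4.37 in *pad2-1* control and 3.89, 3.73 and 3.89 in WT control (log2 fold change 0.58, limma adjusted p = 0.00104). Its arrays were apart, as were those of 25.1% of all probe sets. *ATHSP22.0* fell in *pad2-1* to 3.78 under MV and 3.96 under P-lim, against 4.42 in *pad2-1* control (log2 fold changes -0.63 and -0.46, limma adjusted p = 0.000465 and 0.00502). Outside *pad2-1* control it lay above 21.2 to 28.8% of the probe sets of an array, near the background and about level with the root markers. In *pad2-1* control it lay above 31.4 to 35.1%, which overlaps the 23.8 to 32.4% of the root markers, so its level was low there too. These differences may understate the sizes. *Hsp70-2* was higher by 0.27 in *pad2-1* control than in WT control (limma adjusted p = 0.0100), a call lost without WT control replicate 3 (0.0524) or *pad2-1* control replicate 3 (0.0578). In WT, none of the 7 was called by limma under MV or P-lim, and 1 had an unadjusted p under 0.05 for each.

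*Hop1* and *Hop2*, paralogs of *HOP3*, were not called by limma in any comparison. An unadjusted p under 0.05 was seen for *Hop1* in *pad2-1* against WT under P-lim (0.0436) and for *Hop2* under P-lim in *pad2-1* (0.0259). *Hop1* lay between 7.20 and 7.49 on all arrays and *Hop2* between 7.77 and 8.16. In *pad2-1* against WT under control the log2 fold change was 0.06 for *Hop1* (95% confidence interval -0.06 to 0.19) and 0.14 for *Hop2* (-0.02 to 0.30), intervals that lie below that of *HOP3* (1.18 to 2.01). Of the 3 HOP genes, *HOP3* was thus the one with a large difference. It had been added by locus with earlier results of these data known, so this contrast shows nothing about the family.

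Other genes of the heat and unfolded protein responses came from a list of 28, of which 8 had a probe set named by 1 gene. The rest of the list may have probe sets without such a name and was not analysed here. In *pad2-1* against WT under control, 3 of 8 were higher and 0 lower, with a median log2 fold change of 0.13, where 6.35% of all probe sets were called, 3.66% higher. *Fes1A* (AT3G09350), a nucleotide exchange factor of cytosolic HSP70, had 8.34, 7.84 and 7.39 in *pad2-1* control and 6.56, 6.42 and 6.43 in WT control, 2.62-fold higher (log2 fold change 1.39, 95% confidence interval 1.08 to 1.70, limma adjusted p = 5.4e-06). *BZIP60* (AT1G42990), the factor of the unfolded protein response whose mRNA is spliced by IRE1, had 8.74, 8.66 and 8.19 against 7.78, 7.75 and 7.80 (log2 fold change 0.75, 0.55 to 0.96, limma adjusted p = 6.24e-05). For both, the *pad2-1* control arrays lay above all others. *HSA32* (AT4G21320), which maintains acquired heat tolerance, was higher by 0.39 (limma adjusted p = 0.0169), lost without *pad2-1* control replicate 1 (0.0888) or WT control replicate 1 (0.0553) or 3 (0.0714).

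Under MV in *pad2-1*, *Fes1A* and *BZIP60* were lower, 2 of 8 with 0 higher, with log2 fold changes of -1.18 and -0.68 (limma adjusted p = 4.32e-05 and 0.000196), where 8.01% of all probe sets were called. Under P-lim these genes were lower too, 2 of 8 with 0 higher, with log2 fold changes of -1.14 and -0.56 (limma adjusted p = 3.98e-05 and 0.000848), where 11.8% were called. In WT, 0 of 8 were called by limma for either stress, and at an unadjusted p under 0.05 also 0, where 13.5% of all probe sets were called under MV and 9.21% under P-lim. *Fes1A* stayed between 6.37 and 6.56 and *BZIP60* between 7.68 and 7.96 on the WT arrays. As with *ROF2* and *HOP3*, replicate 1 of *pad2-1* control was the highest and replicate 3 the lowest for both genes, which was noticed after the values were seen. This order held for 4 of the 8 genes among the members and related genes that were called higher in *pad2-1* control than in WT control, and not for *ATHSP22.0*, *HSA32*, *Hsp70-2* and *Cpn60beta3*. These genes share the *pad2-1* control arrays with the members, and the list was read beside them as a description.

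**Figure D3:**
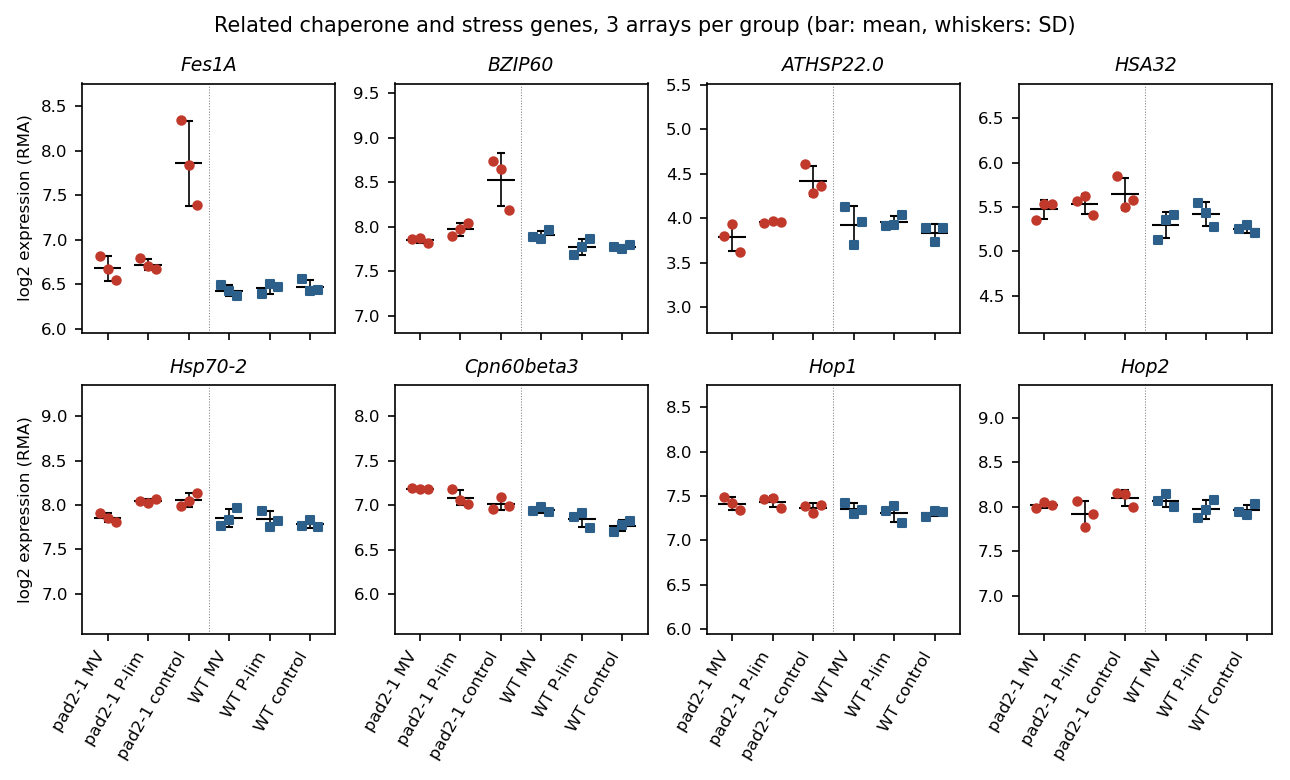
Log2 expression (RMA, y axis) of 8 related chaperone and stress response genes on each array of the 6 groups (x axis), with *pad2-1* as red circles, WT as blue squares, bars for group means and whiskers for the SD. *Fes1A* and *BZIP60* have their *pad2-1* control arrays above all others, from 7.39 and from 8.19 upwards, and *Hop1* and *Hop2* are level over the groups.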

How the data were processed

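Total RNA from the aerial parts of 18-day-old seedlings was hybridized to Affymetrix ATH1 arrays, 3 per group. The deposited values are log2 expression values that the authors computed by RMA over all arrays, which corrects the background, quantile-normalizes and summarizes the probes of a set. RMA gives the arrays a common distribution, so a shift shared by most transcripts cannot be seen, and it compresses signal near the background. Groups were taken from titles and treatment labels, since WT arrays under MV or P-lim carry a description with normal medium.

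The values were used as deposited. Of 22810 probe sets, 64 manufacturer controls were dropped and 22746 tested. The probe table names 13513 by 1 gene and 503 by several, and 8730 are not listed in it. RefSeq names (assembly TAIR10.1) were found for 13436. The deposited files name no genome build, so no positions are given. limma (version 3.58.1, R 4.3.3) fitted 6 group means to the 18 arrays. The fit gave 7 comparisons and 2 interactions, with Benjamini-Hochberg adjusted p values over the whole array, and a gene was called at an adjusted p under 0.05. The steps were tested on simulated data.

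The members, the lists and the tests were chosen with earlier results of these data known. Members called with a log2 size of 1 or more, the highest member of each family and members called in an interaction were to be given with values, and others beside counts of 5 or fewer. The alternatives were the compared arrays alone, the dimmer 50% of probe sets left out, arrays shifted to 1 median, trend and robust estimation, a replicate block, each array left out, and a minimum log2 size of 1. Depth has no counterpart on arrays, and precision is set by the 3 arrays of a group.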

Additional observations from a re-analysis of the deposited data

Results flagged for a closer look

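By limma's interaction test, the responses of the genotypes to stress differed in 7 cases. These came from the 8 members, the 7 related chaperones and the 8 listed genes of the heat and unfolded protein responses. Over all probe sets tested, 1.65% were called in the interaction with MV and 0.725% in that with P-lim. *ROF2*, *HOP3* and the lists were chosen with earlier results of these data known. The number of cases therefore shows nothing about the families. For MV the interaction, the log2 response of *pad2-1* minus that of WT, was -1.40 for *ROF2* (limma adjusted p = 0.00056), -1.34 for *HOP3* (0.0161), -1.14 for *Fes1A* (0.00632), -0.81 for *BZIP60* (0.00437) and -0.72 for *ATHSP22.0* (0.0108). For P-lim it was -1.07 for *ROF2* (limma adjusted p = 0.00857) and -1.12 for *Fes1A* (0.0121). All 7 are negative and share the *pad2-1* control arrays, in which each of these genes had its highest group mean. *HOP3* and *ATHSP22.0* were near the background in WT control, where a fall in WT could hardly have shown, so their interactions are limited on that side. The log2 response to MV in *pad2-1* and in WT was -1.38 and 0.02 for *ROF2*, -1.20 and 0.15 for *HOP3*, -1.18 and -0.04 for *Fes1A*, -0.68 and 0.13 for *BZIP60* and -0.63 and 0.09 for *ATHSP22.0*. For P-lim it was -1.19 and -0.12 for *ROF2* and -1.14 and -0.01 for *Fes1A*. The calls held with any 1 of 12 arrays left out for all 7, and the highest adjusted p in limma was then 0.0443 for *HOP3* and 0.0417 for *Fes1A* under P-lim.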

How the results depend on the processing

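Over the genes with values, 207 results were recomputed in 2508 alternatives. Of these, 2444 stayed on the same side of the threshold, 39 were no longer called and 25 became called. Direction was compared only where a result was called in the main fit or the alternative, and 0 of those reversed. Without the dimmer 50% of probe sets, 5 of 8 members were left (*ROF2*, *HOP3* and *CLPB2* were not), so the counts were 1 lower for MV and 0 for P-lim in *pad2-1*, 1 higher for P-lim in WT, 0 higher for *pad2-1* against WT under control and 0 lower in both interactions. With a minimum log2 size of 1, 0 members were lower in WT under MV, 0 higher in WT under P-lim and 0 higher in *pad2-1* than in WT under MV. With the compared arrays alone, 1 was higher in WT under P-lim and 0 in *pad2-1* against WT under MV. Trend and robust estimation left 1 higher in WT under P-lim and 1 lower in the interaction with MV. Arrays shifted to 1 median gave 2 lower in the interaction with P-lim. Leaving *CRT1b* out of the members, chosen after the data were seen, gave 1 higher in WT under P-lim.

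With 1 array left out, 2 to 3 members were lower for MV and 2 to 2 for P-lim in *pad2-1*, 1 to 2 lower for MV and 0 to 2 higher for P-lim in WT, 2 to 2 higher in *pad2-1* than in WT under control and 0 to 1 under MV, and 2 to 2 and 1 to 2 lower in the interactions with MV and P-lim. The replicate block gave 0 higher in *pad2-1* against WT under MV (*CLPP4*, limma adjusted p = 0.0519) and 2 lower in the interaction with P-lim (*HOP3*, 0.0387), and changed no other count of members. Over all probe sets it called 1697 for MV in *pad2-1*, against 1821 without it. Deviations of same-numbered arrays correlated at -0.185 to 0.177, 2 of 45 pairs over 0.1, and 4 of 18 arrays correlated best with their own number, so the numbers do not pair the arrays. The 3 arrays of a group and signals near the background (*CLPB2*, and *HOP3* and *ATHSP22.0* outside *pad2-1* control) limit what could be measured. The causes of these changes were not tested.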

Other observations

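The 3 plastid chaperonin genes given here encode subunits of the folding cage that helps Rubisco and other plastid proteins to fold. *Cpn60beta3* was higher in *pad2-1* than in WT in all 3 conditions, by 0.24 on the log2 scale under MV, 0.24 under P-lim and 0.25 under control (limma adjusted p = 0.0215, 0.0200 and 0.0148). Its arrays were at 7.19, 7.18 and 7.18 in *pad2-1* MV against 6.94, 6.98 and 6.92 in WT MV, at 7.17, 7.06 and 7.01 in *pad2-1* P-lim against 6.86, 6.91 and 6.75 in WT P-lim, and at 6.95, 7.09 and 6.99 in *pad2-1* control against 6.70, 6.78 and 6.82 in WT control. The *pad2-1* arrays were above the WT arrays in each condition. Arrays of the genotypes were apart in either direction for 20.1% of all probe sets under MV, 23.2% under P-lim and 25.1% under control. The shares of all probe sets called were 5.16%, 5.31% and 6.35%. The calls were lost with the compared arrays alone (limma adjusted p = 0.0774, 0.0939 and 0.0550). Leaving out 1 array also ended the call for 5 of the 6 arrays under MV (0.0507 to 0.0718), for WT replicate 3 (0.125) and *pad2-1* replicate 1 (0.0920) under P-lim, and for WT replicate 1 (0.0837) and *pad2-1* replicate 2 (0.0913) under control. *Cpn60beta2* rose in *pad2-1* under P-lim, with 10.73, 10.73 and 10.69 against 10.46, 10.46 and 10.52 in *pad2-1* control (log2 fold change 0.24, limma adjusted p = 0.0166), a call lost without *pad2-1* control replicate 1 (0.0563) or 2 (0.0559) or *pad2-1* P-lim replicate 2 (0.0565). *Cpn60beta4* was not called in any comparison.

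On the ER side of the unfolded protein response, *BZIP28* (AT3G10800), the membrane-bound partner factor of *BZIP60*, was at 7.27, 7.48 and 7.37 in *pad2-1* control and 7.22, 7.18 and 7.22 in WT control, apart but not called (log2 fold change 0.17, limma adjusted p = 0.189). *ATERDJ3B* (AT3G62600), an ER J protein, was at 8.79, 8.88 and 8.90 in *pad2-1* MV and 9.01, 9.03 and 9.03 in *pad2-1* control, also apart and not called (log2 fold change -0.16, limma adjusted p = 0.0626). It was called without the dimmer probe sets (0.0267), with arrays shifted to 1 median (0.0314) and with trend and robust estimation (0.0341). *SGT1A* (AT4G23570), a co-chaperone of HSP90 in immune signalling, was at 7.80, 7.76 and 7.79 in *pad2-1* MV and 8.19, 8.05 and 7.87 in *pad2-1* control (log2 fold change -0.25, limma adjusted p = 0.0965), and was called without the dimmer probe sets (0.0492) or without *pad2-1* control replicate 3 (0.0300). Arrays were apart for 23.6% of all probe sets between *pad2-1* MV and *pad2-1* control, and for 25.1% between *pad2-1* control and WT control.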
